A study of Macaca mulatta with 7 samples.

Results

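The genes described here were 10 components of the Notch pathway, measured in single nuclei of rhesus monkey spinal cord: the receptors NOTCH1, NOTCH2 and NOTCH3, the ligands JAG1 and DLL1, and the target genes HES1, HES5, HEY1, HEY2 and HEYL. They were taken by symbol from the 28966 symbols or identifiers of the matrices, and all 10 were found. The set was chosen by measured values of these same libraries, so the levels and ratios below are descriptions and carry no test. Each value is a gene's UMIs (unique molecular identifiers, counts of captured transcripts) summed over the nuclei of a cell class in a library and divided by the class total, in counts per 1000000 UMIs (CPM), with an exact 95% Poisson interval in brackets. Levels were compared between classes and libraries of 1 gene, never between genes, because transcript length was not taken into account.

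The 7 libraries were made from adult Macaca mulatta, 1 library per group. Intact cervical, thoracic and lumbar cord came from an untreated animal of 5 years. The injured group was lumbar cord below a complete thoracic transection, spared by the cut itself and far below it, taken at 7 days post injury (dpi, animal of 7 years), 14 dpi (7 years), 30 dpi (6 years) and 6 months post injury (mpi, 6 years). By the study's account all animals were female, the 3 intact segments were from 1 monkey and each time point was from 1 other monkey. Time after injury, animal, age and library preparation therefore cannot be told apart, and the intervals cover counting error only.

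Notch receptors are single-pass membrane proteins that are cut after binding a ligand on a neighbouring cell. The released intracellular part enters the nucleus, joins the DNA-binding protein RBPJ and a Mastermind-like coactivator, and switches on genes of the HES and HEY families, which are basic helix-loop-helix repressors. In the cord the pathway is best known for holding progenitors undifferentiated, for its part in oligodendrocyte precursors (OPCs) and astrocytes, and for mural and arterial endothelial cells, where NOTCH3 and HEYL are prominent.

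The deposited matrices held 45079131 to 150987900 UMIs per library, and 63730 nuclei were kept, 5637 to 11002 per library, with a median of 3191 UMIs per nucleus at 6 mpi and 4836 to 7355 elsewhere. Pairs of libraries shared 9 to 29 barcodes, at most 0.318% of the smaller library. Clusters built without the pathway genes gave 22091 oligodendrocyte-like, 4096 OPC-like, 4254 astrocyte-like, 9894 neuron-like and 20509 microglia-like nuclei, each with its defining markers. Astrocyte-like nuclei were few after injury, 98, 254, 152 and 118 at 7, 14 and 30 dpi and 6 mpi, against 914 to 1739 in the intact libraries. Oligodendrocyte-like clusters separated largely by group, which bears on HEYL below. Microglia-like clusters did so too, which bears on NOTCH1 and NOTCH2. The largest of them held 1549, 2308 and 1771 nuclei of the intact libraries and 2, 2, 4 and 20 of the injured ones.

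The clearest difference among the members was that of HEYL in oligodendrocyte-like nuclei, 10.4 to 12.8 CPM in the 3 intact libraries and 0.193 to 0.774 in the 4 injured ones, while its level in astrocyte-like nuclei overlapped between the groups. In OPC-like nuclei NOTCH1, JAG1 and DLL1 lay above the intact range in all 4 injured libraries, with JAG1 highest at 7 dpi. In astrocyte-like nuclei HES1, HEY1 and HEY2 lay above it in all 4, and in microglia-like nuclei NOTCH2 did, with its highest value at 6 mpi, or at 30 dpi without 1 cluster that held 1187 nuclei at 6 mpi. Another microglia-like cluster with a similar marker score, in which NOTCH2 read higher, was kept in both cases.

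These counts were read against all genes. A gene counted as 2-fold when all 4 injured libraries differed from intact lumbar cord by 2-fold or more in the same direction, on CPM plus 1, and lay outside the range of the 3 intact libraries. It was counted only with at least 50 UMIs of the class over the 7 libraries and a mean of at least 5 CPM. By this filter 4 members were counted in oligodendrocyte-like nuclei, 4 in OPC-like, 7 in astrocyte-like, 2 in neuron-like and 2 in microglia-like nuclei. HEYL in oligodendrocyte-like nuclei passed the filter through its intact libraries alone, and HES1 in astrocyte-like and NOTCH1 in oligodendrocyte-like nuclei passed it through the injured libraries alone, with intact means of 3.0 and 4.34 CPM. It was the only member past 2-fold in any of the 5 classes.

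In oligodendrocyte-like nuclei 1 of 4 members was 2-fold lower, against 0.339% of 9725 genes, and 0 were 2-fold higher, against 0.566%. In OPC-like nuclei 0 of 4 were 2-fold higher, against 0.437% of 10533 genes, or lower, against 0.209%. In astrocyte-like nuclei 0 of 7 were 2-fold higher, against 1.09% of 11290 genes, or lower, against 0.292%. In microglia-like nuclei 0 of 2 were 2-fold higher, against 2.12% of 10330 genes, or lower, against 1.04%. In neuron-like nuclei 0 of 2 were past 2-fold in either direction, against 0.0800% of 11255 genes higher and 0.0800% lower. Since the members were chosen with these values known, nothing about the pathway as a whole was read from the shares.

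The looser count, all 4 injured libraries on 1 side of the 3 intact ones whatever the size, took in far more genes. It was made over the genes and members that passed the same filter on UMIs and level. In oligodendrocyte-like nuclei 13.7% of genes lay above and 11.2% below, with 0 members above and HEYL below. In OPC-like nuclei 7.85% lay above and 6.84% below, with 3 of 4 members above and 0 below. In astrocyte-like nuclei 9.75% lay above and 6.40% below, with 3 of 7 members above and 0 below, and HES1 was 1 of the 3. In microglia-like nuclei 15.1% lay above and 12.4% below, with 1 of 2 members above and 0 below. Without 1 microglia-like cluster of a low marker score, which held 1187 nuclei at 6 mpi, 14.8% lay above and 13.3% below, with 2 of 2 members above and 0 below. Another cluster with a similar score, in which NOTCH2 read higher, was kept in that count. In neuron-like nuclei 8.53% lay above and 11.7% below, with 0 of 2 members on either side.

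Among the receptors, NOTCH1 (ENSMMUG00000017022, Mmul_10 chromosome 15, 1699397 to 1752996, plus strand) is broadly used by neural progenitors and glia. In intact lumbar cord it stood at 50.4 CPM (44.2 to 57.1) in OPC-like and 43.7 (39.2 to 48.5) in astrocyte-like nuclei, intervals that overlapped, then at 16 (13.2 to 19.1) in microglia-like nuclei, 3.59 in oligodendrocyte-like nuclei and 0.437 in neuron-like nuclei. In OPC-like nuclei its levels were 47.5, 53.7 and 50.4 CPM in the intact libraries (cervical, thoracic and lumbar, here and in every such list) and 96.5, 75.8, 76.6 and 77.3 CPM in the injured ones (7, 14 and 30 dpi and 6 mpi). All 4 injured values lay above the 3 intact ones, with ratios to intact lumbar cord of 1.91 (1.59 to 2.30), 1.5 (1.20 to 1.87), 1.52 (1.27 to 1.81) and 1.53 (1.16 to 2). In these brackets and in those of every ratio stands the exact 95% counting interval.

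In astrocyte-like nuclei NOTCH1 read 42.7, 32.4 and 43.7 CPM in the intact libraries and 87.1, 70.5, 53.0 and 35.7 in the injured ones. The first 3 injured libraries exceeded the intact ones and the 6 mpi library lay among them, 0.816 times intact lumbar cord (0.521 to 1.23), so the groups overlapped. Microglia-like nuclei gave a like order, 22.4, 19.9 and 16 intact and 48.3, 37.8, 22.7 and 16.5 injured, with the 7 dpi value 3.03 times that of intact lumbar cord (2.49 to 3.71) and the 6 mpi value 1.03 times (0.785 to 1.36). Without the cluster of a low marker score the 6 mpi level was 22.9 CPM, 1.43 times intact lumbar cord (1.05 to 1.95), and all 4 injured values then lay above the intact ones, by little at 30 dpi and 6 mpi. Without the 445 dividing nuclei, which read 53.4, the 7 dpi value was 47.1. In oligodendrocyte-like nuclei NOTCH1 was low, 3.59 to 5.20 intact and 4.85 to 9.65 injured.

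NOTCH2 (ENSMMUG00000018375, chromosome 1, 104176518 to 104366227, plus strand) is a receptor that myeloid cells also carry. Microglia-like nuclei held 29.2% to 32.0% of its UMIs in the intact libraries, where astrocyte-like nuclei held 33.6% to 41.6%, and 73.0% to 80.4% in the injured ones, whose nuclei were of another class mix. Its levels in microglia-like nuclei were 158, 159 and 170 CPM in the intact libraries and 179, 178, 218 and 315 in the injured ones, with ratios to intact lumbar cord of 1.05 (0.981 to 1.12), 1.04 (0.979 to 1.11), 1.28 (1.20 to 1.36) and 1.85 (1.72 to 1.99). All 4 injured values lay above the intact ones, those of 7 and 14 dpi with intervals that included equal levels. Since microglia-like clusters divided largely by group, cluster and injury were not separated in these values. At 6 mpi 51.3% of microglia-like nuclei were in 1 cluster led by GPNMB, a lysosomal membrane glycoprotein, and named on a low marker score, and NOTCH2 read 412 CPM (391 to 435) in its 1187 nuclei of that library. In another GPNMB-expressing cluster it read 336, 259, 321 and 380 CPM in the injured libraries, the last from 62 nuclei (302 to 473), so the level differed between clusters as well as between libraries. The few intact nuclei of that cluster read 251 CPM (169 to 358, 27 nuclei), against 313 (303 to 323) in the injured sum. Those of the low-scoring cluster read 542 (343 to 813, 9 nuclei), against 411 (390 to 433). Without the cluster named on a low score the 6 mpi level was 205 CPM (189 to 222), still above the intact libraries, and 30 dpi was then the highest. The other GPNMB-expressing cluster, with a marker score of 0.263 beside 0.238, was kept for these values. At 30 dpi it held 1190 of the 3843 remaining nuclei and 2997 of their 5496 NOTCH2 UMIs. Of the remaining NOTCH2 UMIs at 7 dpi, 14 dpi and 6 mpi it held 441 of 2787, 568 of 3686 and 81 of 600. Its level exceeded that of each injured library, so it raised those values. Whether all 4 injured libraries would lie above the intact ones without it as well was not tested.

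**Figure D1:**
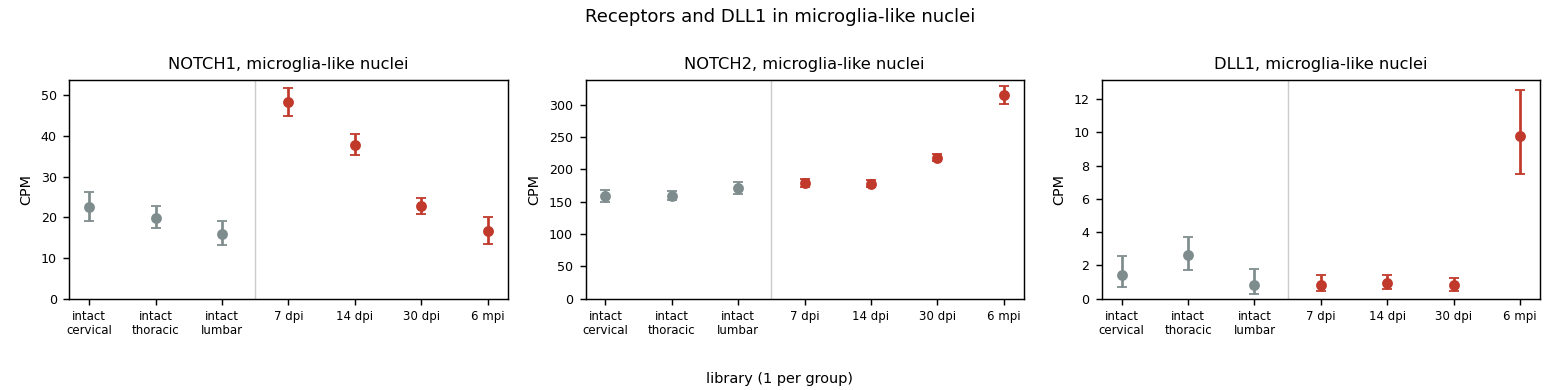
NOTCH1, NOTCH2 and DLL1 in microglia-like nuclei, in CPM on the vertical axis of each panel and the 7 libraries on the horizontal axis, with points for the levels, bars for exact 95% Poisson intervals, gray for intact and red for injured libraries. NOTCH1 is highest at 7 dpi with 48.3, NOTCH2 at 6 mpi with 315 and DLL1 at 6 mpi with 9.77, and without 1 low-scoring cluster the 6 mpi values are 22.9, 205 and 4.79.

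In astrocyte-like nuclei NOTCH2 read 169, 128 and 166 CPM intact and 222, 171, 149 and 147 injured, and the groups overlapped. In OPC-like nuclei it read 77.1, 76.6 and 81.7 intact and 91.3, 63.4, 61.1 and 78.4 injured, with values on both sides of the intact range. In neuron-like nuclei it read 10.0, 8.31 and 5.82 intact and 10.9, 11.3, 9.16 and 8.97 injured. Its intact lumbar value was the lowest of the 7 there, so the ratios of 1.54 to 1.94 to that library were set by a segment that differed from the other intact ones.

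NOTCH3 (ENSMMUG00000013637, chromosome 19, 14761814 to 14803537, minus strand) is the receptor of vascular smooth muscle and pericytes. It had 800 UMIs in all. Astrocyte-like nuclei held 49.7% to 74.0% of them in the intact libraries and 23.7% to 52.2% in the injured ones, where neuron-like nuclei held 36.7% to 60.7% and the larger share at 7 dpi and 6 mpi. The injured nuclei were of another class mix, and the neuron-like level was low. It was 0.257, 0.618 and 0.448 CPM intact and 0.586 and 0.451 at 14 and 30 dpi. In astrocyte-like nuclei NOTCH3 read 12.4, 8.64 and 11.4 CPM intact and 11.4, 23.9, 20.5 and 11.4 injured. The 14 and 30 dpi libraries were 2.09 (1.41 to 3.04) and 1.79 times (1.18 to 2.67) intact lumbar cord, while 7 dpi and 6 mpi lay inside the intact range. Among the vascular nuclei, too few to compare by library, NOTCH3 reached 129 CPM (98.3 to 166) in a cluster of 85 nuclei led by fibroblast genes that also carried mural markers. Clustering the vascular nuclei again set apart a sub-cluster of 32 nuclei that scored highest for mural markers. The NOTCH3 level of that sub-cluster is not given here.

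The ligands are read by neighbouring cells. JAG1 (ENSMMUG00000018116, chromosome 10, 55873166 to 55909441, plus strand) is a ligand of the Jagged type. In OPC-like nuclei it read 4.96 (28 UMIs), 7.21 (88) and 7.29 (35) CPM in the intact libraries, and 59.4 (138), 13.5 (23), 19.8 (73) and 11.8 (11) in the injured ones. Every injured value lay above the intact ones, and the 7 dpi value was the highest of the 7.

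Against intact lumbar cord JAG1 in OPC-like nuclei was 8.15 (5.59 to 12.2), 1.85 (1.05 to 3.23), 2.72 (1.79 to 4.19) and 1.62 times (0.742 to 3.26) as high, in time order, the last with an interval that held no difference. It missed the 2-fold count because the 14 dpi and 6 mpi libraries fell short of it. Dividing nuclei, marked by MKI67 and TOP2A, were 70 of the 371 OPC-like nuclei at 7 dpi and 55 of 1488 in intact thoracic cord. JAG1 read 120 CPM in the dividing nuclei at 7 dpi and 38.3 in the others, so the 7 dpi value without dividing nuclei still lay above the 5.06, 7.60 and 7.02 of the non-dividing intact nuclei. In the dividing nuclei of intact thoracic cord only 2 JAG1 UMIs were seen, 2.24 CPM.

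JAG1 did not follow this order in neuron-like or microglia-like nuclei. In neuron-like nuclei, which held 43.3% to 78.1% of its UMIs in the intact libraries and 36.8% to 78.8% in the injured ones, it read 9.06, 8.45 and 6.60 intact and 3.71, 4.97, 4.93 and 7.68 injured, 0.563 times intact lumbar cord at 7 dpi (0.465 to 0.677), with the 6 mpi library back inside the intact range. In microglia-like nuclei it was low in every library, 2.6 to 3.78 intact and 0.627 to 2.40 injured, and it did not pass the filter there. Thinned to 1000 UMIs per nucleus, 3.77% of OPC-like nuclei at 7 dpi held a JAG1 UMI (2.08 to 6.25, exact binomial), against 0.115% of microglia-like nuclei of that library, the class taken as background, where the median depth was 4203 UMIs against 5805. In intact lumbar cord the same shares were 0.406% and 0.336%, so JAG1 in intact OPC-like nuclei stood near background by this measure. Unthinned, 17.8% and 4.19% of OPC-like nuclei held a UMI in these 2 libraries.

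DLL1 (ENSMMUG00000021144, chromosome 4, 350340 to 359259, plus strand) is the Delta-like ligand of progenitors. In OPC-like nuclei it read 40.6, 36.5 and 41.5 CPM intact and 63.3, 67.0, 48.1 and 127 injured. All injured values lay above the intact ones, with ratios to intact lumbar cord of 1.53 (1.23 to 1.90), 1.62 (1.27 to 2.04), 1.16 (0.941 to 1.43) and 3.06 (2.41 to 3.86). The 6 mpi library was highest for DLL1 in each of the 5 classes, with 18.8 CPM in oligodendrocyte-like nuclei, 9.99 in astrocyte-like, 9.77 in microglia-like and 6.22 in neuron-like ones, against 8.91, 3.94, 0.819 and 3.78 in intact lumbar cord. The earlier injured libraries did not share this. In oligodendrocyte-like nuclei DLL1 read 7.86, 6.00 and 8.91 CPM intact and 6.28, 5.85 and 3.06 at 7, 14 and 30 dpi, the last 0.344 times intact lumbar cord (0.264 to 0.444). In neuron-like nuclei the 14 and 30 dpi levels of 2.93 and 2.81 lay below the intact 3.78 to 4.02. Astrocyte-like nuclei held 0, 2, 5 and 7 DLL1 UMIs after injury, and the 6 mpi ratio of 2.54 there had an interval of 0.942 to 5.87. Of the 61 DLL1 UMIs of microglia-like nuclei at 6 mpi, 47 lay in the low-scoring cluster, and without it the level was 4.79 CPM (2.62 to 8.03), against 0.820 to 2.43 in the intact libraries. The 6 mpi library was also the shallowest, and the part of depth in the pattern was not tested.

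**Figure D2:**
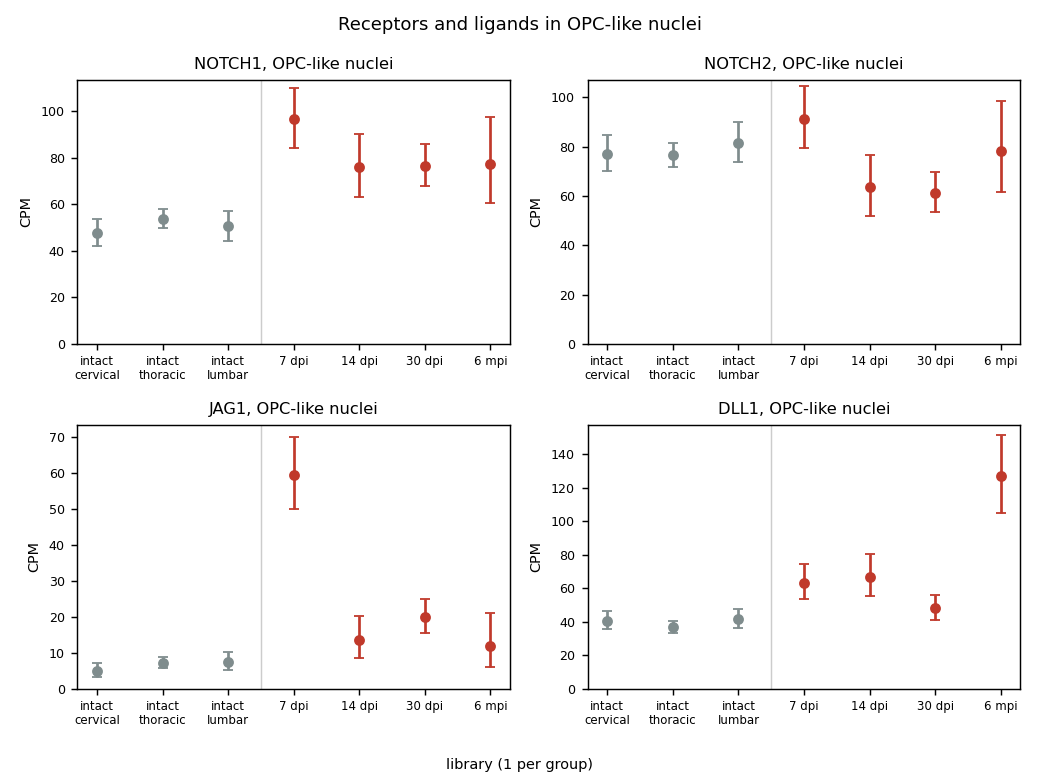
NOTCH1, NOTCH2, JAG1 and DLL1 in OPC-like nuclei, with CPM on the vertical axes, the 7 libraries on the horizontal axes, points for the levels and bars for exact 95% Poisson intervals. JAG1 peaks at 59.4 in the 7 dpi library and DLL1 at 127 in the 6 mpi library, while NOTCH2 lies on both sides of the intact values.

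Of the targets, HES1 (ENSMMUG00000058672, chromosome 2, 3822148 to 3824980, minus strand) is the classical Notch-driven repressor. It had 430 UMIs in all. In astrocyte-like nuclei it read 3.67 (32 UMIs), 1.77 (35) and 3.56 (28) CPM intact and 12.6 (10), 9.10 (16), 14.3 (25) and 5.71 (4) injured. The 4 injured values lay above the 3 intact ones, 3.55 (1.54 to 7.52), 2.56 (1.29 to 4.89), 4.01 (2.24 to 7.12) and 1.60 times (0.409 to 4.59) intact lumbar cord, the last from 4 UMIs.

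HEY1 and HEY2 are hairy-related repressors of the same family as HEYL. HEY1 (ENSMMUG00000002740, chromosome 8, 80219116 to 80222974, minus strand) read 13.3, 9.45 and 14.1 CPM in intact astrocyte-like nuclei and 21.5, 24.5, 35.9 and 17.1 after injury, with 2.55 times intact lumbar cord at 30 dpi (1.84 to 3.50) and 1.21 times at 6 mpi (0.609 to 2.21). HEY2 (ENSMMUG00000053773, chromosome 4, 29268992 to 29280971, plus strand) read 47.3, 37.3 and 39.2 intact and 93.4, 77.3, 65.6 and 58.5 injured, with ratios of 2.38 (1.82 to 3.08), 1.98 (1.60 to 2.42), 1.67 (1.34 to 2.08) and 1.49 (1.05 to 2.08). For both genes the injured values all lay above the intact ones, and those of HEY2 were lower at each later time.

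**Figure D3:**
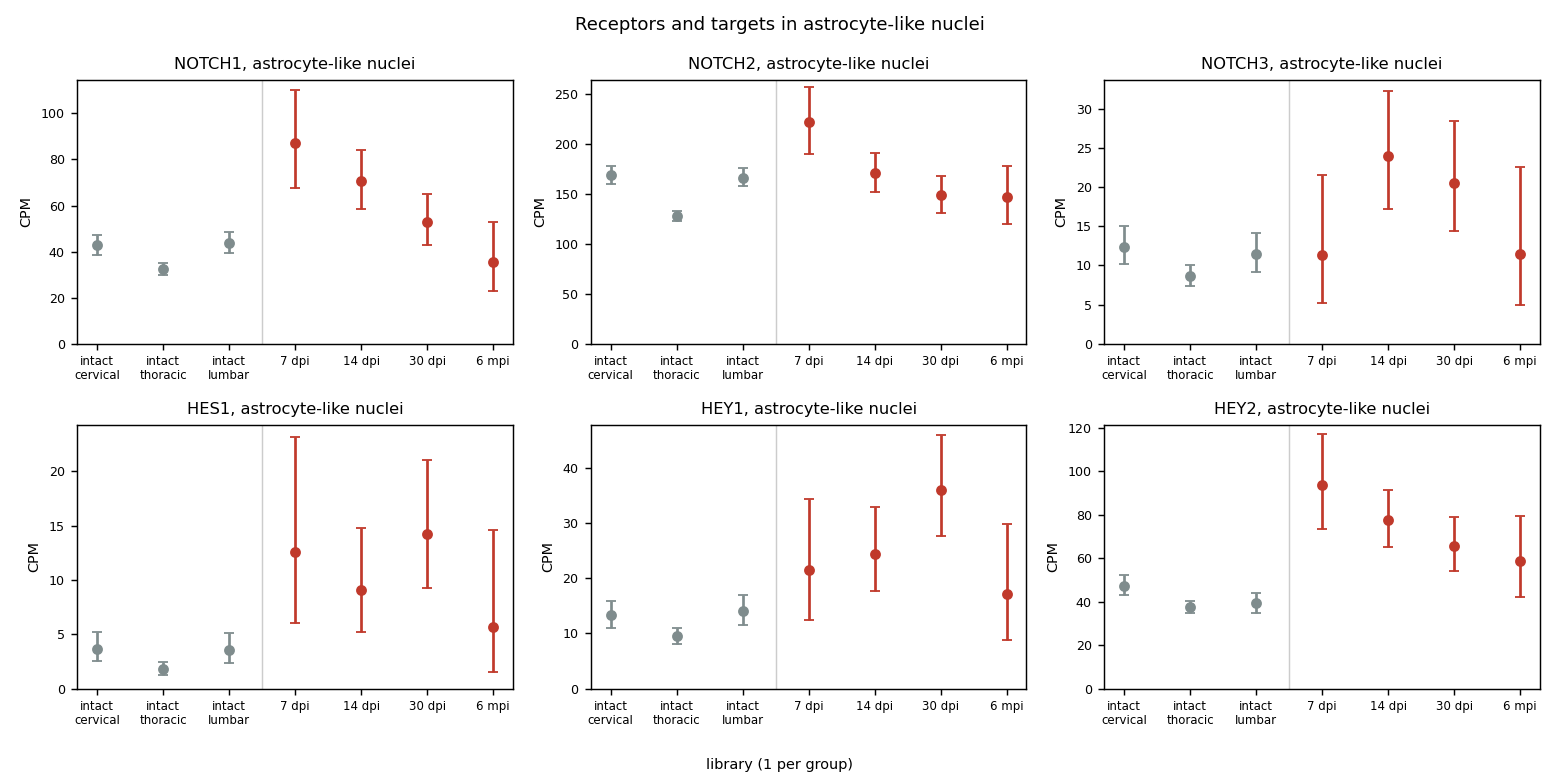
NOTCH1, NOTCH2, NOTCH3, HES1, HEY1 and HEY2 in astrocyte-like nuclei, with CPM on the vertical axes, the 7 libraries on the horizontal axes, points for the levels and bars for exact 95% Poisson intervals. HES1, HEY1 and HEY2 lie above the 3 intact libraries in all 4 injured ones, and the wide bars of HES1 at 7 dpi and 6 mpi rest on 10 and 4 UMIs.

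The astrocyte-like nuclei fell into 2 clusters, here called white matter for the 1 higher in the listed markers IL33, VCAN, GFAP and CD44 and led by ITGB4 and SLC14A1, and gray matter for the 1 led by ITPRID1 and SLC1A2, and the mix differed by library, with 58 white and 40 gray nuclei at 7 dpi and 1466 and 273 in intact thoracic cord. HEY2 in the white matter cluster read 53.8, 35.5 and 42.5 intact and 105, 76.9, 64.6 and 55.7 injured. In the gray matter cluster it read 38.8, 48.6 and 36.7 intact and 79.7, 77.6, 67.9 and 60.3 injured, so the injured values lay above the intact ones in each cluster taken alone. HES1 in the gray matter cluster read 6.60, 5.75 and 4.22 intact and 19.2, 10.2, 15.1 and 6.96 injured, and its white matter levels are not given here. At 6 mpi the clusters held 38 white and 80 gray nuclei, so the HES1 and HEY1 values of that library rest on few UMIs. HEY1 in the gray matter cluster read 8.71, 8.99 and 10.4 intact and 27.5, 17.9, 35.8 and 25.5 injured, whereas in the white matter cluster its 16.9, 9.52 and 19.0 intact and 16.3, 37.6, 36.0 and 3.71 injured overlapped.

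In the other large classes the targets except HEYL were low or overlapped between the groups. HEY2 in oligodendrocyte-like nuclei read 9.06, 8.63 and 6.51 intact and 8.42, 7.13, 8.56 and 9.81 injured, overlapping. In the intact libraries that was 19.2%, 23.1% and 16.6% of its astrocyte-like level. The highest single astrocyte marker stood at 20.3%, 23.2% and 18.5% there. In the injured ones HEY2 stood at 9.01%, 9.22%, 13.0% and 16.8%, above that marker at 6.67%, 5.77%, 9.76% and 11.3%. The part of free astrocyte RNA in the HEY2 level was not tested. HEY1 had 23.8% to 67.5% of its UMIs in neuron-like nuclei in the intact libraries and 64.0% to 82.6% in the injured ones, at 3.09 to 4.53 intact and 3.89 to 5.71 injured, also overlapping. HES1 in microglia-like nuclei had 0, 1 and 1 UMIs in the intact libraries and 3, 9, 16 and 7 in the injured ones, at most 1.12 CPM. HES5 (ENSMMUG00000063558, chromosome 1, 221871481 to 221873314, plus strand), a target of neural progenitors, had 5 UMIs over the 63730 nuclei, 4 of them in neuron-like nuclei, and no level could be compared.

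Ependymal-like nuclei, 623 in all and 6 to 48 per injured library, held HES1 at 6.27, 23.6 and 36.3 CPM in the intact libraries, from 3, 17 and 54 UMIs. After injury they held 3, 5, 0 and 0 HES1 UMIs, and the 18.0 and 17.3 CPM at 7 and 14 dpi lay inside the intact range. At 30 dpi the floor of 3 UMIs stood at 8.38 CPM, which put the level at least 4.33-fold lower than in intact lumbar and 2.82-fold lower than in intact thoracic cord but bounded nothing against the cervical library. The 0 at 6 mpi came from 6 nuclei and bounded nothing. HEY2 in ependymal-like nuclei read 58.6, 44.5 and 49.8 CPM intact and 42.0 (7 UMIs), 20.7 (6), 41.9 (15) and 0 injured, with ratios to intact lumbar cord of 0.844 (0.328 to 1.83), 0.416 (0.148 to 0.950) and 0.842 (0.449 to 1.48) at the first 3 times. Only the 14 dpi interval stopped short of equal levels, and the 0 at 6 mpi had a floor above every intact level.

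HEYL (ENSMMUG00000050019) lies on chromosome 1 of Mmul_10 at 184938820 to 184954331, plus strand, and RefSeq places no other gene over it. It is a HEY-family repressor known as a Notch target of vascular smooth muscle. The 250 bases before the annotated start are shown because the gene carries the main difference. Beside it is the same window of HEY2, its relative whose levels overlapped between the groups in the same nuclei. Both were read from the RefSeq assembly Mmul_10, 5′ to 3′ on the coding strand, HEYL at chr1:184938570-184938819 and HEY2 at chr4:29268742-29268991. Capitals mark matches to TGGGAA, the core of the RBPJ recognition sequence, on either strand.
HEYL: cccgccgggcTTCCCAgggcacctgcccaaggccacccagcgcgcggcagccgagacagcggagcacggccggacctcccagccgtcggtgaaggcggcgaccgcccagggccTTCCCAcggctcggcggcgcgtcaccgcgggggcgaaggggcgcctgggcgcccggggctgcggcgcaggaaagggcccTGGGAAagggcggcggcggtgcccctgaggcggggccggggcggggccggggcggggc
HEY2: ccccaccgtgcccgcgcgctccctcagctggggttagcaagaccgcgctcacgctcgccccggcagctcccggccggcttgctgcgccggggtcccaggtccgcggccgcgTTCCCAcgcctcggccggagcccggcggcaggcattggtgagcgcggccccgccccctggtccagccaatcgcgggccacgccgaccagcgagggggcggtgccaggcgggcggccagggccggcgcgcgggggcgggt

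The HEYL window held 3 matches, starting 240, 137 and 58 bases before the gene start, and the HEY2 window held 1, at 139 bases. The other 8 members had none in this window. Of 20781 protein-coding gene windows of 250 bases, 19.7% held at least 1. The matches are of letters only and say nothing of binding. Part of the HEYL window also lies in the annotated lncRNA LOC106997891, which runs away from HEYL on the minus strand.

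In oligodendrocyte-like nuclei HEYL had 511 UMIs in intact cervical, 558 in intact thoracic and 263 in intact lumbar cord, and 17, 3, 7 and 2 at 7, 14 and 30 dpi and 6 mpi. The levels were 12.5 CPM (11.5 to 13.7), 12.8 (11.7 to 13.9) and 10.4 (9.15 to 11.7) intact, and 0.774 (0.451 to 1.24), 0.193 (0.0398 to 0.564), 0.258 (0.104 to 0.532) and 0.226 (0.0273 to 0.815) injured. The intact values lay close together, every injured value lay under them, and 7 dpi was the highest of the injured libraries.

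Against intact lumbar cord the level was 13.4-fold (8.21 to 23.4), 53.8-fold (18.2 to 262), 40.2-fold (19.2 to 101) and 46.0-fold (12.6 to 382) lower, in time order. On the log2 scale with 1 CPM added the differences were -2.68, -3.25, -3.18 and -3.21. Among the 33 genes that were 2-fold lower in oligodendrocyte-like nuclei HEYL had rank 4 by its smallest change over the 4 libraries. The cervical and thoracic levels were 1.21 (1.04 to 1.41) and 1.23 times (1.06 to 1.43) that of intact lumbar cord.

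**Figure D4:**
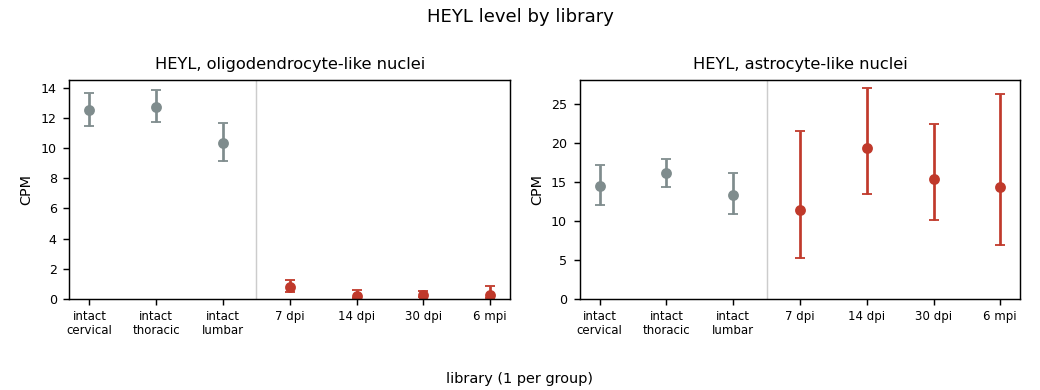
HEYL in oligodendrocyte-like nuclei (left) and astrocyte-like nuclei (right), with CPM on the vertical axes, the 7 libraries on the horizontal axes, points for the levels and bars for exact 95% Poisson intervals. The oligodendrocyte-like levels go from 10.4 to 12.8 in the intact libraries to at most 0.774 in the injured ones, and the astrocyte-like levels overlap.

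Astrocyte-like nuclei kept HEYL, at 14.5, 16.1 and 13.4 CPM intact and 11.4 (9 UMIs), 19.3 (34), 15.4 (27) and 14.3 (10) injured, 0.851 (0.379 to 1.68), 1.45 (0.954 to 2.15), 1.15 (0.726 to 1.77) and 1.07 times (0.498 to 2.05) intact lumbar cord. These intervals held no difference, but they also allowed levels from 0.379 times at 7 dpi to 2.15 times at 14 dpi. In intact cord the oligodendrocyte-like level was 77.7% to 86.8% of the astrocyte-like one, and at 14 dpi, 30 dpi and 6 mpi it was 0.997%, 1.68% and 1.58% of it, after 6.81% at 7 dpi.

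The 8 astrocyte markers stood in oligodendrocyte-like nuclei at a median of 1.64% to 2.54% of their astrocyte-like level in the intact libraries, and at 0.948%, 1.28%, 1.04% and 1.03% in the injured ones. The highest single marker stood at 18.5% to 23.2% intact and at 6.67%, 5.77%, 9.76% and 11.3% injured. The HEYL ratio exceeded every marker in the intact libraries and, by little and from 9 astrocyte-like UMIs, at 7 dpi, and lay between 0.997% and 1.68%, under the highest marker, in the later ones. The part of free astrocyte RNA in these levels was not tested. At the depth of each injured library, 3 UMIs would have been 0.137, 0.193, 0.111 and 0.338 CPM.

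The oligodendrocyte-like nuclei of the intact libraries were also divided by whether they held a HEYL UMI. The summed astrocyte markers read 206, 247 and 196 CPM in the 452, 462 and 235 nuclei with a HEYL UMI, and 217, 235 and 198 in those without. Their oligodendrocyte markers were 12860, 13856 and 14349 against 12645, 13202 and 13691. Nuclei with a HEYL UMI were deeper, with medians of 10534.5, 12785 and 9552 UMIs against 7329.5, 8292.5 and 5538, and most held 1 HEYL UMI, with 4 the highest.

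The astrocyte markers in oligodendrocyte-like nuclei overlapped between groups in their sum, 198 to 237 CPM intact and 141 to 300 injured, but not gene by gene. SLC1A3 read 141 to 162 intact and 54.2 to 92.2 injured, SLC1A2 4.05 to 7.83 and 1.40 to 3.04, and GFAP 28.2 to 52.3 and 58.0 to 195, while AQP4, GJA1, GJB6, SLC4A4 and ALDH1L1 overlapped. None of the 8 was at 0 in a group. The part of these differences in the HEYL result was not tested.

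When each nucleus was thinned to 1000 UMIs, 1.25%, 1.13% and 0.95% of intact oligodendrocyte-like nuclei held a HEYL UMI, against 0.0792% to 0.121% of microglia-like nuclei, the background class, whose median depth was 3235 to 4021.5 UMIs against 5708.5 to 8631. After injury the shares were 0.106% at 7 dpi (0.0288 to 0.270, exact binomial) and 0 of 1906, 0 of 2722 and 0 of 1934 nuclei later, which allows shares of up to 0.157%, 0.110% and 0.155%. Unthinned, the shares were 10.5%, 11.6% and 6.77% intact and 0.370%, 0.157%, 0.257% and 0.103% injured. In the injured libraries the thinned background was 0 of 3471, 0 of 4608, 2 of 3855 and 0 of 2315 microglia-like nuclei, and by CPM the 7 dpi oligodendrocyte-like level of 0.774 exceeded the microglia-like 0.320 (0.104 to 0.746) of that library. From 14 dpi on no HEYL was detectable above background in the thinned nuclei at this depth.

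The oligodendrocyte-like nuclei formed 6 clusters that divided largely by group, although HEYL and the rest of the pathway had been left out of the clustering. Of these, c0, c8 and c9 held mostly intact nuclei and c2 and c5 mostly injured ones. HEYL was therefore also compared within clusters, intact libraries summed against injured libraries summed. In c0, led by OPALIN, a late oligodendrocyte membrane protein, 5096 intact nuclei gave 227 UMIs, 6.99 CPM (6.11 to 7.96), and 824 injured nuclei gave 0, at least 7.31-fold lower against a floor of 3 UMIs over the group.

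In c8, 3366 intact nuclei gave 433 UMIs, 15.1 CPM, and 203 injured nuclei gave 0, at least 4.94-fold lower. In c9, 3075 intact nuclei gave 647 UMIs, 13.9 CPM, and 110 injured nuclei gave 1, 13.7-fold lower (2.45 to 543). In c5, the cluster mostly of injured nuclei led by FGFR2, 94 intact nuclei gave 16 UMIs, 16.3 CPM (9.33 to 26.5), and 4003 injured nuclei gave 25, 0.599 (0.388 to 0.885), 27.2-fold lower (13.6 to 53.1).

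HEYL was lower in the injured sum in 4 of the 5 clusters with at least 50 nuclei of each group. In 3 of these 4 the injured nuclei came mostly from the 6 mpi library, 531 of 824 in c0, 150 of 203 in c8 and 75 of 110 in c9. Without that library c0 was at least 3.11-fold lower and c8 at least 1.33-fold lower, with 0 UMIs in 293 and 53 nuclei, and c9 held 1 UMI in 35 nuclei. In c5, where all 4 injured libraries had 428 or more nuclei, the levels were 1.16, 0.317, 0.315 and 0.591 CPM in time order, all under the intact 16.3, and the fold without the 6 mpi library was 27.2. The exception was c2, where 52 intact nuclei gave 0 UMIs, which allows up to 13.3 CPM, and 5197 injured nuclei gave 3. Within the intact libraries the level was lower in the OPALIN-led c0 than in c8 and c9, whose intervals do not overlap it.

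**Figure D5:**
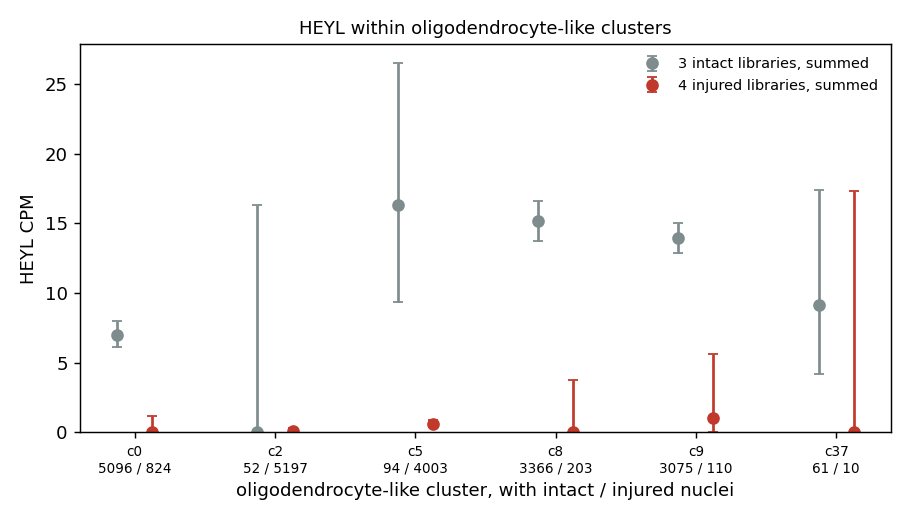
HEYL in each oligodendrocyte-like cluster, with CPM on the vertical axis and the 6 clusters on the horizontal axis with their numbers of intact and injured nuclei, gray points for the 3 intact libraries summed, red points for the 4 injured libraries summed, and bars for exact 95% Poisson intervals. In c0, c5, c8 and c9 the intact points lie at 6.99 to 16.3 and the injured ones at most at 1.01.

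The neighbours of HEYL on chromosome 1 were read in the same nuclei. PABPC4, a cytoplasmic poly(A)-binding protein gene at 185008471 to 185024512 on the same strand, read 11.5, 12.1 and 11.5 CPM intact and 14.3, 13.0, 11.6 and 17.0 injured. The upstream genes HPCAL4 and NT5C1A were at 1.01 CPM or below in every library. None of the PABPC4 values after injury lay below the intact range.

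In the remaining classes HEYL was low. It read 0.522 to 0.721 CPM intact and 0.228 to 0.472 injured in neuron-like nuclei, and 0.700 to 0.985 intact and 0.0964 to 0.356 injured in microglia-like nuclei, from 11 UMIs or fewer per library in the latter. All injured values lay below the intact ones in both classes, where HEYL did not pass the filter and 11.7% and 12.4% of the genes that did lay below. In OPC-like nuclei it had 8, 25 and 4 UMIs intact, which is 1.42, 2.05 and 0.833 CPM, and 1, 2, 2 and 0 UMIs injured. The 14 dpi level of 1.17 CPM there lay inside the intact range, so the groups overlapped. Among vascular nuclei it read 32.2 CPM (18.0 to 53.1) in the fibroblast-led cluster with mural markers. It read 15 (7.47 to 26.8) in an endothelial-led cluster of 149 nuclei that carried mural markers too. The share of all HEYL UMIs that came from oligodendrocyte-like nuclei was 72.9%, 58.1% and 59.6% intact and 34.0%, 5.00%, 10.9% and 8% injured.

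The endothelial-led cluster, unnamed at the first clustering because of its mural markers, had the other vascular members as well. It held 36, 39 and 40 nuclei from the intact libraries and 8, 8, 13 and 5 from the injured ones. NOTCH1, which arterial endothelium uses, read 117 CPM (93.6 to 145), JAG1 66.7 (49.3 to 88.2) and HES1 32.7 (20.9 to 48.6) there, all 7 libraries summed. No comparison between groups was made in it.

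Of 44 other pathway genes, listed by role, 27 to 31 passed the filter per class. By the 2-fold count 1 was called, DTX1, an E3 ubiquitin ligase that acts on Notch receptors, which was higher in microglia-like nuclei, 1 of 29 against the 2.12% of all genes given above, having passed the filter through the injured libraries alone, and 0 in the other 4 classes. DTX1 read 1.12, 1.52 and 0.955 CPM in intact microglia-like nuclei and 3.96, 16.3, 20.1 and 33.2 at 7, 14 and 30 dpi and 6 mpi, higher at each later time. Microglia-like clusters divided largely by library, so cluster and time were not separated in these values. DTX1 was not recomputed without the low-scoring cluster of the 6 mpi library.

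The genes that cut the receptors and act with them in the nucleus gave overlapping or near values in oligodendrocyte-like nuclei, where HEYL was low. RBPJ, the DNA-binding partner of Notch, read 458, 428 and 428 intact and 378, 418, 373 and 448 injured. ADAM10, the protease that cuts the ligand-bound receptor, read 360 to 370 intact and 368 to 425 injured. MAML2, a Mastermind-like coactivator, read 1147 to 1237 intact and 1196 to 1351 injured. The median log2 ratio of the 27 listed genes to intact lumbar cord was 0.12, 0.07, 0.06 and 0.10 at 7, 14 and 30 dpi and 6 mpi, beside 0.12, -0.03, -0.01 and 0.11 over the 9725 genes.

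In OPC-like nuclei DLL3, a Delta-like protein that acts within the cell, read 11.3, 11.1 and 12.5 intact and 22.0, 19.4, 20.9 and 20.4 injured. It was among 5 of 29 listed genes above the intact libraries, with 2 below, against 7.85% and 6.84% of all genes. In astrocyte-like nuclei TLE1, a Groucho corepressor that HES and HEY proteins recruit, read 116, 111 and 91.6 intact and 45.4, 27.3, 34.2 and 64.3 injured. It was among 3 of 30 listed genes that lay below the intact libraries there, with 3 above, against 6.40% and 9.75% of all genes. Above and below the intact libraries were 6 and 6 of 29 listed genes in microglia-like nuclei, against 15.1% and 12.4% of all genes. They were 5 and 1 of 27 in oligodendrocyte-like nuclei, against 13.7% and 11.2%, and 4 and 5 of 31 in neuron-like nuclei, against 8.53% and 11.7%. Of the 28 listed genes that passed the filter in 3 or more classes 2 lay above in at least 3 of them and 2 below, against 4.10% above and 3.63% below of 10460 genes. DTX3, of the same ligase family as DTX1, lay above in all 5 classes, in microglia-like nuclei with an intact mean under the filter, with 18.1 CPM in intact lumbar cord and 37.8, 20.1, 21.6 and 35.1 after injury in neuron-like nuclei. SNW1, a nuclear cofactor of Notch transcription and of splicing, lay below in 4 classes, all but the oligodendrocyte-like, with 71.6 to 84.3 intact and 59.1 to 70.3 injured in microglia-like nuclei, and SPEN, a corepressor that binds RBPJ, lay below in 3. PSEN2, a catalytic subunit of gamma-secretase, lay above the intact libraries in 4 classes, all but the neuron-like, and passed the filter in oligodendrocyte-like and OPC-like nuclei through the injured libraries alone, with 3.31 in intact lumbar cord and 6.05, 7.01, 4.76 and 6.99 after injury in oligodendrocyte-like nuclei. In microglia-like nuclei RBPJ peaked at 14 dpi with 478 against 234 to 246 intact, but not all 4 injured libraries lay above the intact ones. In neuron-like nuclei RBPJ was among the 5 listed genes that lay below the intact libraries.

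The genes with the pattern most like that of HEYL over 38 class by library sums of at least 100 nuclei, by Pearson correlation of log2 CPM plus 1, were GLI2 (r = 0.83), RAG1 (0.82), ACSBG1 (0.81), SMARCD2 (0.81) and PRRX2 (0.81). For NOTCH1 they were led by PDLIM5 (0.95), for NOTCH2 by FNDC3B (0.96), for NOTCH3 by FBLN1 (0.97), for JAG1 by PYCR1 (0.84), for DLL1 by ANGEL1 (0.89), for HEY1 by SLC6A11 (0.92) and for HEY2 by SLC7A11 (0.95). The points share libraries and classes, so these values describe likeness of level across classes and are no test.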

How the data were processed

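Nuclei from homogenised cord were captured with 10x Chromium v3 chemistry, and each group gave 1 library. The authors aligned reads to Mmul_10 with Cell Ranger (6.0.0, per the labels) and the deposited UMI counts, 1 matrix for each library, were unnormalised and prefiltered to at least 500 UMIs per barcode. The annotation release is not given in the sources used here. Of 69332 barcodes, 67084 passed limits on genes (over 500), on UMIs (over 1000) and on the shares of UMIs from mitochondrial (below 10%) and hemoglobin genes (below 5%), and the 5% with the highest Scrublet scores per library (scanpy 1.11.5) were removed.

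Nuclei were clustered on 2000 variable genes without the 10 members and 44 pathway genes, with 30 principal components, 20 neighbours and Leiden resolution 1 (leidenalg 0.10.2, seed 1), without integration. Clusters were called X-like from marker lists, with at least 3 markers detected in 10% of nuclei. A cluster stayed unnamed when another class led its 10 leading genes or reached 0.5 of its marker score. The limit of 0.5 and a minimum score of 0.2 for the second class were set after the clusters were seen. Vascular clusters were clustered again, which named 51 nuclei endothelial and sub-clusters of 39 and 13 nuclei fibroblast. With these named, 1.04% to 3.46% of nuclei per library stayed unnamed. The vascular levels given above are of the clusters before this step. MAG, SCN7A and SNHG11 of the marker lists were not found by symbol. Free RNA was not subtracted.

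All 10 members are named, with those of the other pathway genes that were called and up to 4 examples of a role, and up to 5 genes of the most similar pattern. The members and lists were chosen with earlier results of these data known. No test was made between groups of 1 library. Ratio intervals are exact conditional binomial, and zero counts were bounded by 3 counts. Promoter windows are from RefSeq, Mmul_10. Alternatives covered doublets, resolution, denominators, weights, reference, pseudocount, depth and filter.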

Additional observations from a re-analysis of the deposited data

How the results depend on the processing

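The 10 counts of members past 2-fold, 5 classes in each direction, were recomputed under 8 other settings and 2 more that were chosen after seeing the data, and 99 of the 100 recomputed counts kept their value. The exception was the count of members higher in astrocyte-like nuclei, which went from 0 to 1 (HES1) when the 6 mpi library was left out. HEYL remained the member lower in oligodendrocyte-like nuclei under each of the 10. Its log2 ratio to intact lumbar cord ranged from -2.86 to -2.67 at 7 dpi, from -3.43 to -3.13 at 14 dpi, from -3.36 to -3.12 at 30 dpi and from -3.40 to -3.14 at 6 mpi, but with a pseudocount of 5 CPM it was -1.41, -1.57, -1.55 and -1.56, since the larger constant shrinks ratios of low genes by construction. Of the other 140 ratios of members, 23 left their counting interval with the mean of the 3 intact libraries as reference, 12 with the pseudocount of 5, 8 when each nucleus weighed the same and 0 to 2 under the other settings run on all 140. Without the low-scoring microglia-like cluster, run on the 20 ratios of that class, 2 did, those of NOTCH1 and NOTCH2 at 6 mpi. All 105 shares of nuclei were higher unthinned. With 1 library per group no replicate could be left out and no paired analysis was possible because each group held 1 library. The depth of the 6 mpi library and the few injured astrocyte-like nuclei limit what could be seen there.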
